A study of Mus musculus with 96 samples.

Results

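The clade B serpins followed here are 10 mouse genes, Serpinb1a, Serpinb2, Serpinb3a, Serpinb5, Serpinb6a, Serpinb6b, Serpinb8, Serpinb9, Serpinb10 and Serpinb11. They were chosen by name, as the rows of the count table that carry these symbols, and all 10 were found among its 55487 genes. The table holds 29 clade B genes in all, so that 19 others were not among the members. Counts came from 96 single horizontal basal cells (HBCs), the reserve stem cells of the olfactory epithelium (OE), which were the daughter cells of 48 divisions in culture. All cells were of wild-type genotype and of 1 condition: OE was dissected from adult mice of 6 to 8 weeks at 2 days after methimazole, a drug that injures the OE, and HBCs were grown in matrix-coated dishes. The study's text states that dishes for these cells were coated with Tropoelastin and later with Fibronectin. The labels do not say which mouse or culture a cell came from, and the cells were picked by mouth pipette, so that the 96 cells were treated as 1 sample and no test between conditions could be run. Each lysate had received ERCC spike-in (synthetic transcripts of set amounts), and transcripts with a poly(A) tail were measured by G&T-seq.

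Serpins inhibit proteases by a bait loop that the protease cuts, after which the enzyme is trapped in a covalent complex. Clade B members lack a classical secretion signal and mostly act inside the cell, where they protect it from proteases that leak from granules or lysosomes or arrive from cytotoxic cells. In stratified epithelia several of them are known from keratinocytes, in wound repair and in the stress response. Serpinb2, or plasminogen activator inhibitor 2, blocks urokinase. Serpinb5, or maspin, keeps the serpin fold but does not inhibit proteases. Serpinb9 inhibits granzyme B, Serpinb1a inhibits the elastase and cathepsin G of neutrophils, and Serpinb8 can inhibit furin.

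The members lie in a pair of gene clusters. On GRCm38, 12 clade B genes filled 0.749 Mb of chromosome 1 (chr1:106861173-107610484), 6 of them members: Serpinb5, Serpinb3a, Serpinb11, Serpinb2, Serpinb10 and Serpinb8. The other 17 filled 1.16 Mb of chromosome 13 (chr13:32842092-34002794), 4 of them members: Serpinb1a, Serpinb6b, Serpinb9 and Serpinb6a. Serpinb2 (chr1:107511423-107535478) and Serpinb10 (chr1:107529003-107549271) overlap on the plus strand by 6476 bases, and 291 exon bases belong to both. How reads on shared bases were divided was not given in the sources used here, so the counts of these neighbours are partly uncertain. Serpinb6a (chr13:33917918-34002794, minus strand) shares exon bases with genes of the opposite strand, 762 with Nqo2, 584 with 1110046J04Rik and 241 with Ripk1, and whether counting used the strand was not given either. Close copies of Serpinb1a, Serpinb6b and Serpinb9 lie in the same cluster, and how reads that match several copies were counted was not given, so that the values of these 3 are uncertain too.

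The sequence before the start of transcription is shown for the 5 members that matter most below, since the correlations below compare 4 of them, all on chromosome 1, with each other, and Serpinb6a is the most abundant member. The RefSeq promoter table (GRCm38.p6) had an entry for 9 of the 10 members, and not for Serpinb1a. It held 2 windows each for Serpinb2 and Serpinb6a, of which 1 is shown. The 250 bases upstream of the start were searched on both strands for 4 motifs. For AP-1, the Fos and Jun factors that answer stress and growth signals, the letters were TGANTCA. For the TATA box, which places the start of transcription, they were TATAAA. For the Grainyhead factors of surface epithelia, they were AACNGGTT. For the C/EBP factors of differentiation and inflammation, they were TTGCNNAA. Matches are in capitals, and none overlapped another. The windows are chr1:107511173-107511422, chr1:107528753-107529002, chr1:106860925-106861174 and chr1:107589756-107590005 on the plus strand and chr13:34002795-34003044 on the minus strand.
Serpinb2: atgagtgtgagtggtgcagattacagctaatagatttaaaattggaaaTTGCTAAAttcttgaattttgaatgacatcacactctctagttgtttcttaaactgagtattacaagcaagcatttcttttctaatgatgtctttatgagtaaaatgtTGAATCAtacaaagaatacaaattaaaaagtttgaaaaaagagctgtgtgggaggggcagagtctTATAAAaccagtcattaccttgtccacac
Serpinb10: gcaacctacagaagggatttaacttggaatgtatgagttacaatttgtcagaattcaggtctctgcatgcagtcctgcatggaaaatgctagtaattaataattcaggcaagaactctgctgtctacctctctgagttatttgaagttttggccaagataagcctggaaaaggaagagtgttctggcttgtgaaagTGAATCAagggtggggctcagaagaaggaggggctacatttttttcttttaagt
Serpinb5: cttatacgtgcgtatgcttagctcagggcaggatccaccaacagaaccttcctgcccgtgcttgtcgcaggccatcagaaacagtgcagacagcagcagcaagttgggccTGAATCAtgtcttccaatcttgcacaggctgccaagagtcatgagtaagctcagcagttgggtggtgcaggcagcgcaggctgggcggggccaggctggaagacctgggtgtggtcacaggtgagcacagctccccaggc
Serpinb8: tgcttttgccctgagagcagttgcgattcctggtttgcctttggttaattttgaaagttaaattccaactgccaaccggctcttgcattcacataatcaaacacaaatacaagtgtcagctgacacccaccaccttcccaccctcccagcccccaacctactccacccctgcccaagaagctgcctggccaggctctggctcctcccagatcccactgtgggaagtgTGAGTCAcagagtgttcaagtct
Serpinb6a: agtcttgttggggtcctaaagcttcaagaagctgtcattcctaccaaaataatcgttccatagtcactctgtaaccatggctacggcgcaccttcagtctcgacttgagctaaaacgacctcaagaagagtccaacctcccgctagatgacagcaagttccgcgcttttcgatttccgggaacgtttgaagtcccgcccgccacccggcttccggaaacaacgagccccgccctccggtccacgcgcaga
The AP-1 letters were found in all 4 of these chromosome 1 windows, starting 94 bases before the start of Serpinb2, 54 before Serpinb10, 140 before Serpinb5 and 23 before Serpinb8. They also stood 181 and 76 bases before the annotated start of Serpinb11, a start that lies 1116 bases from the deposited one. The windows of Serpinb3a, Serpinb6a, Serpinb6b and Serpinb9 did not hold these letters, and the annotated start of Serpinb9 lies 1291 bases from the deposited one. Among all 32851 windows of the table, 6.75% held them. Serpinb2 also had TATAAA at 29 bases and the C/EBP letters at 202 bases before the start, which 12.4% and 9.56% of windows held, and Serpinb3a had TATAAA at 65 bases. The Grainyhead letters were in 1.79% of windows and in none of the members'. These matches are letters only, and binding was not measured.

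The gene reads of a cell ranged from 29454150 to 44849003 (median 36152760). The HBC label was met, since Trp63, Krt5 and Krt14 were counted in all 96 cells, with a summed level of 152.6 to 12321 TPM, the deposited level scaled by gene length and library. Listed markers of leukocytes, which could bring their own clade B serpins, reached 10 counts in 11 cells, with a summed level of 0 to 39.8 TPM and Cd3e and Nkg7 at 0 in every cell. Of the Bowman gland markers, Aqp5 was counted in all cells (summed level of that list 9.23 to 8299.4 TPM) and Muc5b in none. The cell least like the others, daughter 2 of pair 4, had a median correlation of 0.58 with the other cells, against a median of 0.70 and 0.61 for the next lowest. It held 691 counts of Krt14 against 137110 in its sister, and results that rest on its pair are given with and without it.

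Serpinb5 and Serpinb6a were counted in all 96 cells, which 8.35% of all genes in the table were. Serpinb2 was counted in 92 cells (95.8%, exact Clopper-Pearson 95% interval 89.7 to 98.9%), Serpinb10 in 90 (93.8%), Serpinb8 in 72 (75%) and Serpinb9 in 62 (64.6%). The remaining members were rarer. Serpinb11 was counted in 32 cells (33.3%), Serpinb1a in 26 (27.1%) and Serpinb6b in 8 (8.33%, interval 3.67 to 15.8%). Serpinb3a, one of the mouse genes related to the human squamous cell carcinoma antigens, had 0 counts in the 96 cells. This allows up to 3.12% of such cells by the limit of 3 in 96 cells, or 3.77% by the upper end of the exact interval. These reads carry no molecular identifiers. The intervals and this limit cover the sampling of cells only, and not transcripts that were present but missed. They also take the 96 cells as independent, although the cells come in sister pairs. With 10 counts required in at least 10% of cells, 8 of the 10 members remained, all but Serpinb3a and Serpinb6b.

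**Figure D1:**
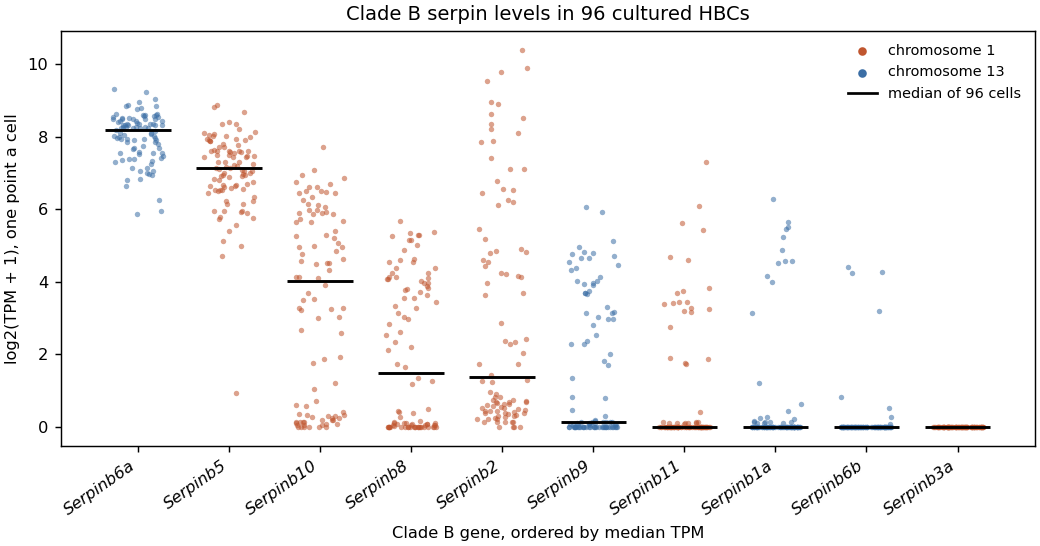
Levels of the 10 clade B members on the scale log2(TPM + 1), with 1 point for each of 96 cells, a black bar at the median and colour by chromosome. Serpinb6a and Serpinb5 form bands with medians of 287 and 139 TPM, Serpinb2, Serpinb10, Serpinb8 and Serpinb9 spread from 0 upward, and Serpinb3a is at 0 throughout.

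On the TPM scale, Serpinb6a was the most abundant member and Serpinb2 had the highest single value. Serpinb6a, which inhibits several trypsin-like proteases and cathepsin G, had a lowest level of 57.1, a median of 287 and a highest of 629 TPM. Its median was above that of 96.7% of the 14463 genes with 10 counts in at least 10% of cells. Serpinb5 ranged from 0.927 to 462.5 TPM with a median of 139, above 93.1% of these genes. Its lowest value belonged to the cell described above, and the next lowest was 25.2 TPM. Serpinb6a was above Serpinb5 in 80 of 96 cells, and the ranges of the pair overlapped widely. Serpinb10, also called bomapin and known from blood cells, came next with a median of 15.1 TPM (0 to 210) and was below Serpinb5 in 94 cells.

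The next members had medians near the floor and long upper tails. Serpinb8 had a median of 1.82 TPM and a highest of 49.8. Serpinb2 had a median of 1.57 TPM and a highest of 1334.6, above the highest value of every other member. The order of these medians says little, since Serpinb8 was above Serpinb2 in 30 cells only and the means ran the other way, 8.85 TPM for Serpinb8 and 87.8 for Serpinb2. Serpinb9 had a median of 0.096 TPM and a highest of 66.1. Serpinb11 reached 157.9 TPM, Serpinb1a 76 and Serpinb6b 20.1, each with a median of 0.

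Serpinb2 was divided between many cells with few reads and a few cells with very many. It had 0 counts in 4 cells, 1 to 99 in 48, 100 or more but under 1000 in 14 and 1000 or more in 30. The 10 highest cells, from 8 pairs, held 74.7% of all its reads. The highest count was 54854 in daughter 1 of pair 46, followed by 47757 in daughter 1 of pair 4 and 43303 in daughter 2 of pair 5. For comparison, the 10 highest cells held 36.9% of Serpinb10 reads, 46.1% of Serpinb8, 53.2% of Serpinb9, 22.6% of Serpinb5 and 18.9% of Serpinb6a. For the rare members they held more, 84.9% for Serpinb11, 93.5% for Serpinb1a and 100% for Serpinb6b. The low counts of Serpinb2 were spread over most libraries, and whether some of them came from other libraries was not tested.

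Serpinb10, Serpinb8 and Serpinb9 were spread over the whole range of counts. Serpinb10 had 0 counts in 6 cells, 1 to 99 in 27, 100 or more but under 1000 in 20 and 1000 or more in 43. In the same order, Serpinb8 had 24, 21, 20 and 31 cells, and Serpinb9 had 34, 22, 21 and 19. Serpinb5 had 1000 or more counts in all but 1 cell and Serpinb6a in every cell.

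The cells were deposited under names that place them in 12 sets of 8. The median of Serpinb2 ran from 0.239 TPM in the lowest set to 68.5 in the highest, that of Serpinb10 from 0.224 to 60.8, that of Serpinb5 from 70.3 to 215.5 and that of Serpinb6a from 165.7 to 354.3 TPM. On the scale log2(CPM + 1), where CPM is a gene's count scaled to the gene reads of its cell, differences between sets made up 10.6% of the variance of Serpinb5, 16.1% of that of Serpinb2, 13% of Serpinb10 and 22.8% of Serpinb6a. What the sets stand for is not given in the labels, and values within sets are given beside the main results below. Serpinb2 CPM had a Spearman correlation of 0.33 over the 96 cells with the RNA content per cell (gene reads divided by the spike-in size factor), and this correlation was 0.21 or less in size for the other 5 members counted in at least 50% of cells. With the gene reads of a cell the largest value in size was -0.26, for Serpinb10. With the mitochondrial share of a cell it was 0.29, for Serpinb6a. The part of these relations in the results below was not tested.

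The question that the paired design poses is how alike the daughter cells of a division are. For each gene, the higher sister was divided by the lower after scaling to the spike-in, with 1 added to each. A ratio of 1.5 or more was found for Serpinb10 in 39 of 48 pairs (81.2%, exact interval 67.4 to 91.1%), for Serpinb2 and Serpinb8 in 37 each (77.1%) and for Serpinb9 in 36 (75%). It was found for Serpinb5 in 23 pairs (47.9%) and for Serpinb6a in 15 (31.2%, interval 18.7 to 46.3%). Thus 4 of the 8 members tested reached 24 pairs. Such differences were usual in these libraries: 79.5% of all genes tested reached 24 pairs, and the median gene had a 1.5-fold difference in 68.8% of pairs. Serpinb6a stood at the low end, since 5.37% of genes had fewer such pairs. The 5 spike-in transcripts nearest in mean TPM showed such a ratio in 66.7 to 81.2% of pairs for Serpinb10, 20.8 to 77.1% for Serpinb2, 72.9 to 87.5% for Serpinb8, 47.9 to 87.5% for Serpinb9, 20.8 to 60.4% for Serpinb5 and 14.6 to 50% for Serpinb6a. The share of each of these members lay within the range of its spike-in transcripts. The transcripts matched to Serpinb5 and Serpinb6a, and the most widely counted for Serpinb2, were counted in all 96 cells. They thus took part in setting the size factors, and their ratios are not independent of that scaling. The match is loose for Serpinb2, Serpinb8 and Serpinb9, whose mean TPM was far above their median.

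The size of the differences separated the members further. The median ratio between sisters was 1.19 for Serpinb6a, 1.48 for Serpinb5, 2.95 for Serpinb2, 3.13 for Serpinb10, 19.8 for Serpinb8 and 45.5 for Serpinb9. Between cells of different pairs (4512 combinations) the median ratio was 1.73 for Serpinb6a, 1.99 for Serpinb5, 21.4 for Serpinb2 and 11 for Serpinb10. For these 4 members sisters were therefore nearer to each other than cells of different pairs. For Serpinb8 the values were close, 19.8 between sisters and 24.8 between other cells, and for Serpinb9 they ran the other way, 45.5 and 17.5. Within a set (288 combinations) the ratios between cells of different pairs were 24.1 for Serpinb2, 15 for Serpinb10, 25.7 for Serpinb8 and 22.2 for Serpinb9.

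**Figure D2:**
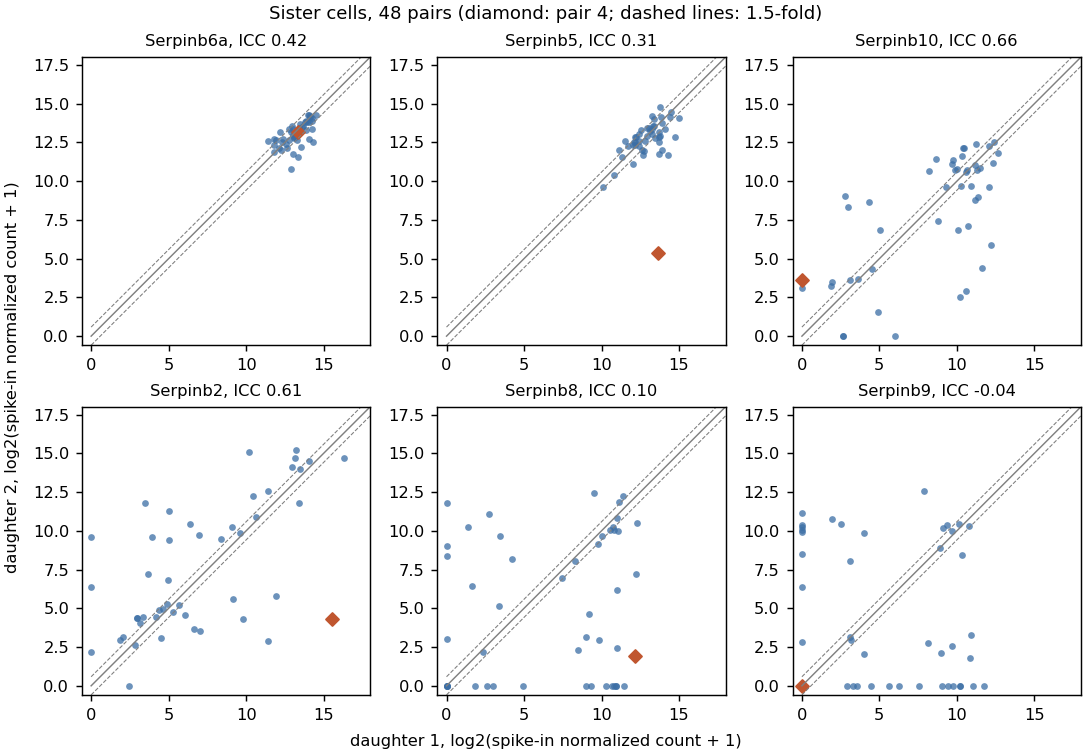
Spike-in normalized counts of both daughter cells on the scale log2(count + 1) for 6 clade B members, with 1 point for each of 48 pairs, the line of equality and dashed lines at 1.5-fold. Points of Serpinb6a and Serpinb5 lie near the line except for pair 4 (diamond) in Serpinb5, and those of Serpinb8 and Serpinb9 lie often on an axis, where 1 sister had 0 counts.

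Serpinb2 was high in both sisters or low in both in most pairs. Both daughter cells had 1000 or more counts in 10 pairs, neither had in 28 and a single daughter had in 10. Pair 24 had 16238 and 19271 counts, pair 44 had 12822 and 14627, and pair 46 had 54854 and 14216. At the other end, pair 13 had 8 and 8 counts and pair 1 had 27 and 24. There were exceptions, as in 8 pairs a daughter with 1000 or more counts had a sister under 100. The largest of these was pair 4 with 47757 and 28 counts, and pair 6 had 4397 and 54.

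Serpinb10 showed the same kind of sharing. Both daughters had 1000 or more counts in 13 pairs, neither in 18 and a single daughter in 17. Pair 5 held its highest count, with 6687 and 4329 in its daughters, and pair 18 had 4096 and 5025. Pair 38 was low in both, with 20 and 20 counts. In 4 pairs a daughter with 1000 or more counts had a sister under 100, the most uneven being pair 36 with 1389 and 6.

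Serpinb8 and Serpinb9 were often present in a single daughter. For Serpinb8, 12 pairs had 10 or more counts in a daughter and 0 in its sister, such as pair 25 with 0 and 3789. For Serpinb9 there were 19 such pairs, such as pair 39 with 4841 and 0 and pair 19 with 2423 and 0. Both daughters of pair 20 had it, with 1959 and 2125 counts. As a measure of what the method gives for molecules present in like amounts in every lysate, the 5 spike-in transcripts nearest in mean TPM had 9 to 20 such pairs near the level of Serpinb8 and 9 to 17 near that of Serpinb9. The number for Serpinb8 lay within the range of these spike-in transcripts and that for Serpinb9 just above it. The match was on the mean, 8.85 TPM for Serpinb8 and 6.78 for Serpinb9, while their medians were 1.82 and 0.096 TPM. In most cells these members thus stood below the level of the matched transcripts, so the comparison is of unlike levels.

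Likeness of sisters was summarised by the intraclass correlation on log2(CPM + 1), which is 1 when sisters are equal and 0 when they are no more alike than any other cells. It was 0.66 for Serpinb10 and 0.61 for Serpinb2, higher than for 99.1% and 98.5% of all genes tested. These 2 members of 8 reached 0.5, as did 4.4% of all genes. With values centred within each set of 8 cells it was 0.61 for Serpinb10 and 0.54 for Serpinb2, and without pair 4 it was 0.64 and 0.68. The 5 spike-in transcripts nearest in mean TPM gave -0.16 to 0.23 for Serpinb10 and 0.07 to 0.36 for Serpinb2. Their counts were scaled to the total spike-in reads of a cell and not to its gene reads, so the scales differ.

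**Figure D3:**
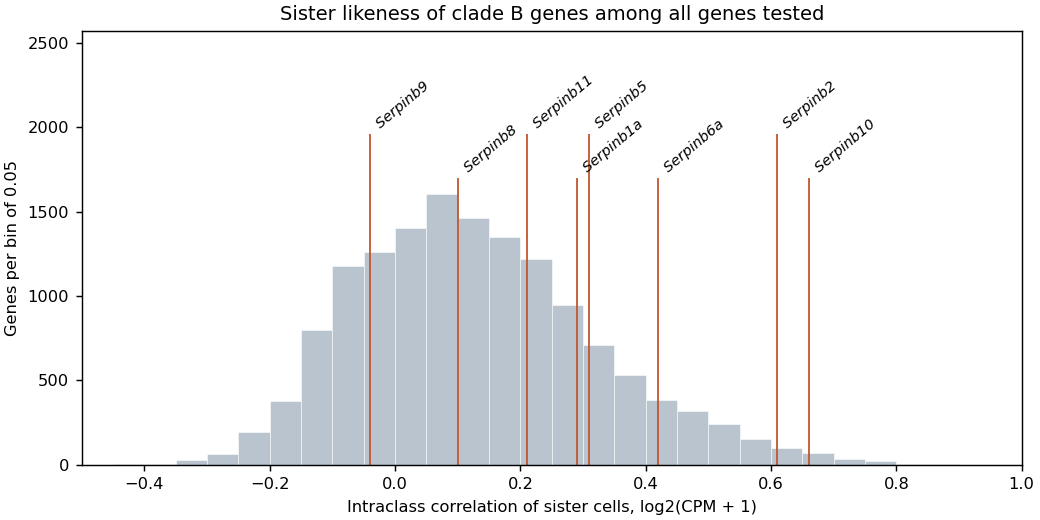
Intraclass correlation of sister cells on log2(CPM + 1), as a histogram over all genes tested in bins of 0.05 and with a line for each of the 8 clade B members tested. Serpinb10 (0.66) and Serpinb2 (0.61) lie in the upper tail, and Serpinb8 (0.10) and Serpinb9 (-0.04) lie at or below the median gene (0.11).

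Serpinb6a had an intraclass correlation of 0.42, and 0.25 within sets. On spike-in normalized counts it was 0.61. Serpinb5 had 0.31, and 0.58 without pair 4, in which the sisters held 13237 and 60 counts, so that Serpinb5 would pass 0.5 without that pair. Its value within sets was 0.22. Serpinb1a had 0.29 and Serpinb11 had 0.21, the latter resting on pair 4, where the sisters held 2409 and 8265 counts, since without that pair it was 0.00. Serpinb8 had 0.10 and Serpinb9 had -0.04, against a median of 0.11 over all genes tested. Within sets the values were 0.18 for Serpinb1a, -0.08 for Serpinb11, -0.07 for Serpinb8 and -0.18 for Serpinb9.

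The rare members are best given by their cells. Serpinb6b, which was not tested because it fell under the limit on low counts, was counted in 8 cells. Pair 27 held 901 and 841 counts, and daughter 2 of pair 47 held 795 while its sister had 0. Daughter 2 of pair 22 had 350 counts, and pairs 20 and 23 had 36 or fewer in each cell. Pair 27 was also the only pair with 1000 or more counts of Serpinb1a in both daughters, 1680 and 1955. The highest Serpinb1a count was 3006 in daughter 1 of pair 46, whose sister had 0. Serpinb11 had 1000 or more counts in 4 cells, of which both cells of pair 4 were 2.

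On the CPM scale, every correlation between members that reached 0.3 joined genes of the chromosome 1 cluster. This did not hold on spike-in normalized counts. Over the 96 cells, which share libraries, sets and sisters, the Spearman correlation of CPM was 0.51 between Serpinb2 and Serpinb10, 0.36 between Serpinb2 and Serpinb5, 0.35 between Serpinb2 and Serpinb8 and 0.34 between Serpinb5 and Serpinb10. These were the 4 of 15 combinations of the 6 members counted in at least 50% of cells that reached 0.3, and on this scale all joined chromosome 1 genes. For comparison, 0.221% (Serpinb9) to 2.52% (Serpinb10) of all genes tested reached 0.3 with a given one of these members. The 6 chromosome 1 combinations had a median of 0.34 and the 8 between chromosomes a median of 0.11. Serpinb6a and Serpinb9, the only combination within chromosome 13, had 0.05. On spike-in normalized counts 7 combinations reached 0.3. The highest were still of chromosome 1, Serpinb2 and Serpinb10 with 0.56 and Serpinb2 and Serpinb5 with 0.49. Of the 7, 3 joined chromosomes 1 and 13: Serpinb5 and Serpinb6a with 0.44, Serpinb2 and Serpinb6a with 0.37 and Serpinb6a and Serpinb8 with 0.33. On that scale the members also followed the RNA content per cell, with a correlation of 0.57 for Serpinb6a, 0.51 for Serpinb5 and 0.43 for Serpinb2, and its part in these values was not tested. Centred within sets, Serpinb2 and Serpinb10 had 0.46, while the other 3 fell to between 0.27 and 0.30. The shared exon bases of Serpinb2 and Serpinb10 bear on the first of these values, and their part was not tested.

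In counts, 72 cells had 10 or more reads of both Serpinb2 and Serpinb10. Serpinb2 reached 10 counts with Serpinb10 at 0 in 5 cells, and the reverse was seen in 1. High levels did not always coincide. Daughter 1 of pair 4 had 47757 counts of Serpinb2 and 0 of Serpinb10, and daughter 1 of pair 1 had 27 of Serpinb2 and 4605 of Serpinb10.

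Differences between the sisters of a pair gave another view, in which what a division shares drops out. Over all pairs except pair 4, the correlation of these differences was 0.35 between Serpinb2 and Serpinb8 and 0.17 between Serpinb2 and Serpinb10. It was -0.08 between Serpinb2 and Serpinb5, which was 0.32 with pair 4, so that the latter value rested on that pair. Over the 15 combinations the median was 0.00, with a range of -0.23 to 0.35.

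**Figure D4:**
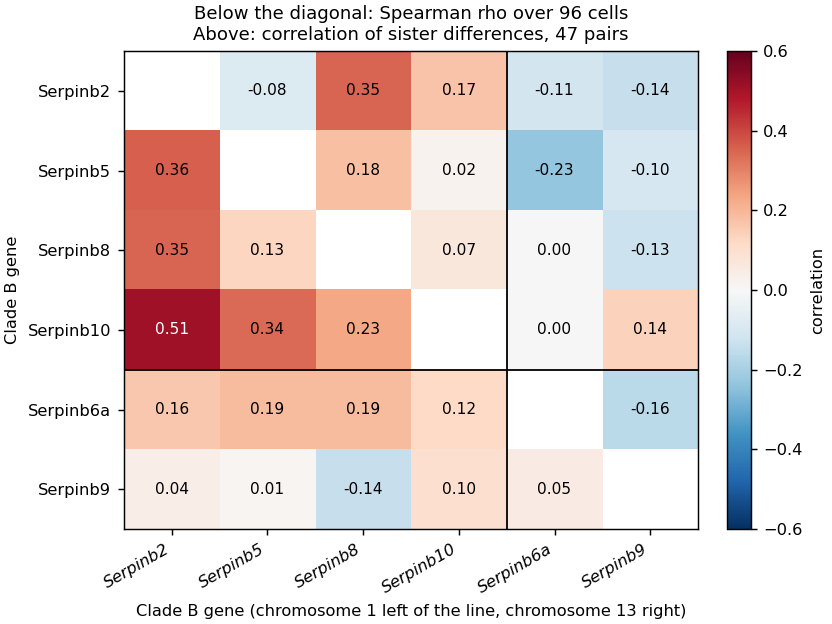
Correlations between 6 clade B members, with Spearman rho of CPM over 96 cells below the diagonal and the correlation of sister differences in log2(CPM + 1), without pair 4, above it. Below the diagonal the chromosome 1 block (Serpinb2, Serpinb5, Serpinb8, Serpinb10) runs from 0.13 to 0.51, and combinations between chromosomes run from -0.14 to 0.19.

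Genes that varied with the members were sought among 14462 others, by Spearman correlation over the 96 cells. Serpinb2 went with S100a10 (0.60) and Anxa2 (0.58), the subunits of a cell surface complex that binds plasminogen, and with Fst (0.57), the activin binding protein follistatin. It ran against Gclm (-0.63) and Nqo1 (-0.58), enzymes of the oxidative stress response, and Aqp4 (-0.58), a water channel. Without pair 4 these values were -0.63 to 0.59. Between sisters, without pair 4, Fst kept 0.44 and both S100a10 and Anxa2 had 0.30, whereas Nqo1 had -0.27, Gclm -0.11 and Aqp4 -0.02.

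By lists of genes, Serpinb2 was lower where airway and xenobiotic genes were higher. Of the 11 such genes tested, 7 had a correlation of -0.3 or below with Serpinb2, where 1.78% of all genes did, and the median of the list was -0.41 against 0.00 over all genes. They included Ces1d (-0.53), a carboxylesterase, Aqp3 (-0.48), Aldh3a1 (-0.47) and Adh7 (-0.45), enzymes and channels of surface airway epithelium. The genes that did not reach -0.3 were Cyp2f2 (-0.23), Tmprss11d (-0.15), Gsto1 (-0.01) and Cyp2a5 (0.12). The median was -0.41 within sets too, but -0.19 for differences between sisters and -0.07 for these without pair 4. In the upward direction, 1.79% of all genes reached 0.3. Of basal genes 5 of 12 did, among them Cd44 (0.49) and Col17a1 (0.41), and of wound keratins Krt16 (0.37) and Krt17 (0.36) did. The basal median was 0.24, with Krt5 at 0.03 and Trp63 at -0.07. The wound keratin median was 0.31, and 0.22 within sets. For differences between sisters the basal median was 0.38 with pair 4 and 0.09 without. The wound keratin median of these differences was 0.41 with pair 4 and 0.06 without, so that both rested on that pair.

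Of squamous differentiation genes 3 of 19 reached 0.3 with Serpinb2, against the same 1.79% of all genes, while the median of the list was 0.08. The 3 were Tgm1 (0.49) and Sbsn (0.45) and Cnfn (0.44), genes of the cornified envelope and its surface, whereas Ivl had 0.03 and Lor -0.12. Among the proteases of clade B inhibitors and their receptors, 1 of 11 reached 0.3. It was Plau (0.42), which encodes urokinase, the protease that Serpinb2 blocks, and its receptor gene Plaur had 0.27. The list of cytokine response genes had a median of 0.08, with Tnfaip3 (0.31) as the single gene at 0.3 or above.

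Serpinb5 went with wound keratins, basal genes and some squamous genes. All 4 wound keratins reached 0.3, Krt6a with 0.46, Krt6b with 0.45, Krt17 with 0.44 and Krt16 with 0.40, where 1.02% of all genes did. Of basal genes 6 of 12 did, with Cd44 and Col17a1 at 0.49 and Krt14 at 0.45, while Trp63 had 0.19 and Krt5 0.12. Of squamous differentiation genes 5 of 19 did, Tgm1 (0.40), Sbsn (0.39), Sprr1a (0.33), Sprr2a1 (0.32) and Sprr2a2 (0.32). The last 2 are near copies that may share reads. The median of the squamous list was 0.14, with Ppl at -0.05, Grhl1 at -0.04 and Ivl at -0.03. The median over wound keratins was 0.42 without pair 4 and 0.35 within sets. For differences between sisters it was 0.70 with pair 4 and 0.16 without, so the likeness within pairs rested on that pair. The basal median of these differences was 0.40 with pair 4 and 0.08 without. Krt6a and Krt6b each had 0.71 with pair 4, and whether they share reads was not tested. The nearest single genes were Hspb1 (0.60), a small heat shock protein, Anxa2 (0.57) and Hsp25-ps1 (0.56), a pseudogene of Hspb1 that may share its reads. Gclm (-0.47) and Aldh2 (-0.46) were among the lowest, and -0.3 or below was reached by 0.788% of all genes and by 1 of 11 airway and xenobiotic genes.

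Serpinb10 had S100a10, Gclm and Aqp3 among its nearest or most opposed genes. S100a10 (0.59) stood with Npm1 (0.62), a nucleolar protein, and Ccnd2 (0.53), a cyclin of early cell cycle, at the high end. Card19 (-0.58), Aqp3 (-0.51) and Gclm (-0.51) stood at the low end. Of airway and xenobiotic genes 5 of 11 were at -0.3 or below, where 1.29% of all genes were, with a list median of -0.26. Upward, 2.52% of all genes reached 0.3, as did 2 of 12 basal genes, with Col17a1 at 0.45 and Cd44 at 0.43. Of 13 cytokine response genes, with a median of 0.01, B2m (0.37), a part of MHC class I, reached 0.3 and Nfkbia (-0.51), the inhibitor of NF-kB, was at -0.3 or below. Between sisters, without pair 4, the median of the airway list was -0.05.

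On the CPM scale, Serpinb6a, Serpinb8 and Serpinb9 followed few genes. For Serpinb6a, 0.526% of all genes reached 0.3 and 0.366% reached -0.3. The highest were Cysrt1 (0.42), S100a6 (0.41) and the airway serine protease gene Tmprss11b (0.40), and the lowest were the kinase gene Sgk1 (-0.47), Fiz1 (-0.42) and Slc35a4 (-0.39). Cell cycle genes had a median of -0.23, with 2 of 13 at -0.3 or below, Aurka (-0.38) and Prc1 (-0.31), but this direction was lost under other scalings, with a median of -0.08 within sets and 0.07 on spike-in normalized counts. The lysosomal protease gene Ctsl had 0.32. For Serpinb8, 0.311% of all genes reached 0.3 and 0.166% reached -0.3. Its nearest were Apbb2 (0.41), the scaffold gene Ahnak (0.39) and Gm45205 (0.38), a gene with 10 counts in only 16 cells, and its lowest were Vps16 (-0.38), the metallothionein gene Mt1 (-0.38) and Gpaa1 (-0.35). Among the listed proteases, Plau (0.35) and Plaur (0.31) reached 0.3 with Serpinb8, and Furin had -0.03. For Serpinb9, 0.221% of all genes reached 0.3 and 0.111% reached -0.3, and no gene of any list did.

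**Figure D5:**
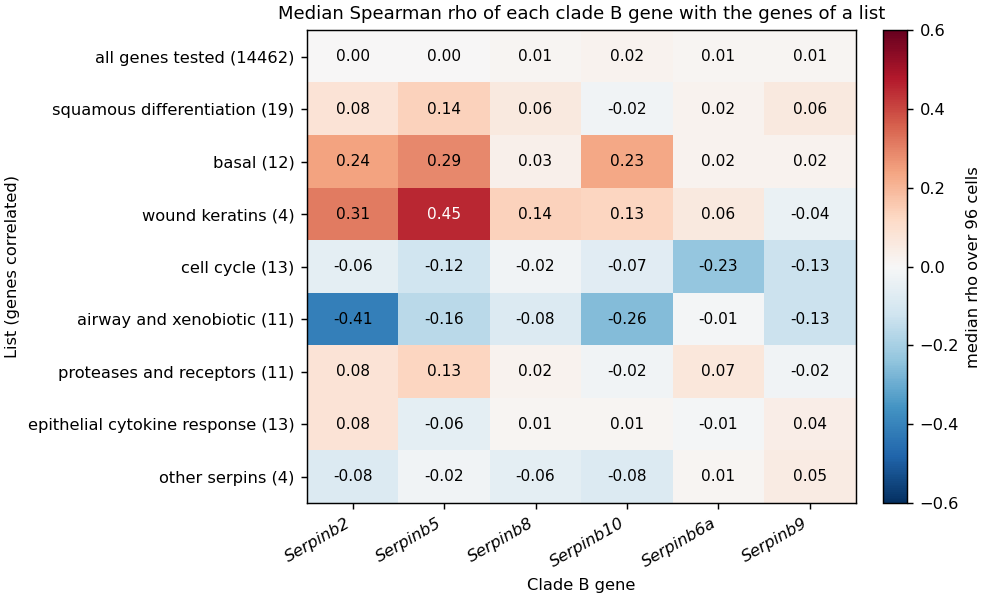
Median Spearman rho of CPM over 96 cells between each of 6 clade B members and the genes of a list, with the number of genes correlated in brackets. Serpinb2 has -0.41 with airway and xenobiotic genes, Serpinb5 has 0.45 with wound keratins, and the columns of Serpinb8 and Serpinb9 stay between -0.13 and 0.14.

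The proteases that clade B serpins are known to inhibit were measured in the same cells. Of 26 listed genes for these proteases, their relatives and receptors, 9 had no count in any cell. Among these were the neutrophil genes Elane, Prtn3 and Ctsg and the granzyme genes Gzma, Gzmb and Gzmk. Of these, Elane and Ctsg encode the targets named above for Serpinb1a, and Gzmb encodes the one named for Serpinb9. The lysosomal cathepsins were abundant, with a median of 705.9 TPM for Ctsl, 203.2 for Ctsb and 108.6 for Ctsh, each counted in all 96 cells. Plaur was counted in all cells with a median of 156.7 TPM, and Plau in 78 cells with a median of 6.88 TPM (0 to 203.7). Furin had a median of 10.1 TPM. Of the other serpins listed, Serpine2, an inhibitor of thrombin and plasminogen activators, had a median of 130.6 TPM and Serpinh1, a collagen chaperone, had 50.7.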

How the data were processed

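RNA of 96 single cells was measured by G&T-seq. The authors trimmed reads with Trimmomatic 0.39, used STAR 2.7.11a for alignment to GRCm38 (Ensembl release 100, ERCC added), and obtained counts with StringTie. The deposited files give whole-number counts per gene and cell, not normalized, and TPM per gene and cell, which the authors' tool scales for gene length over a total that includes ERCC. Counts were used for all values except levels given as TPM.

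Calculations used Python 3.11.15, numpy 2.4.6, scipy 1.17.1, pandas 2.3.3 and matplotlib 3.10.9. Spike-in size factors were medians of ratios over the 22 of 92 ERCC transcripts counted in all cells (0.378 to 1.89). Sister ratios used a pseudocount of 1 on spike-in normalized counts. Comparisons across genes used the 14463 genes with 10 counts in at least 10% of cells. The intraclass correlation was tested on simulated data.

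The cells share 1 condition and the labels name no mouse or culture, so no p-value was computed. The members and the gene lists were chosen with earlier results of these data known. Genes named as varying with a member are, by rule, the top 3 and bottom 3 by correlation for members with 10 counts in at least 50% of cells, besides listed genes. List genes and pairs given as examples were picked after their values were seen. Promoters came from RefSeq. The authors' grouping of cells into clusters was not used here. Some genes that met this rule or stood in the lists are not reported here.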

Additional observations from a re-analysis of the deposited data

How the results depend on the processing

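The number of members counted in at least 50% of cells was 6, and 5 with either 10 counts or a TPM of 1 required. A median of at least 1 TPM was reached by 5 members, and a mean of at least 1 TPM by 8. The number of members with a 1.5-fold difference in at least 24 of 48 pairs (4) was 4 to 6 under the alternatives. The number with an intraclass correlation of 0.5 or above (2) was 2 to 3, and 2 to 3 also when each set of 4 pairs was left out in turn.

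Of the 15 combinations of members, 4 reached a correlation of 0.3, against 7 on spike-in normalized counts and 1 centred within sets of 8 cells, and 2 to 4 with each set left out. The lowest of these came from leaving out set 10. The correlation of Serpinb2 and Serpinb10 (0.51) was 0.63 with 1 value a pair, and 0.45 to 0.58 with each set left out. The median correlation of Serpinb2 with airway and xenobiotic genes (-0.41) was -0.30 on spike-in normalized counts and -0.19 for differences between sisters. The causes of these changes were not tested.

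Leaving out pair 4 and taking counts under 100 as 0 were chosen after seeing the data. The latter gave intraclass correlations of 0.59 for Serpinb2 and 0.66 for Serpinb10. Without a filter on low counts the share of all genes with a 1.5-fold difference in at least 24 pairs was 37.7% in place of 79.5%, and the share at an intraclass correlation of 0.5 was 2.61% in place of 4.4%. With 10 counts required, the share of cells with Serpinb8 was 59.4% in place of 75%, and with Serpinb9 46.9% in place of 64.6%.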

Other observations

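Of the 19 clade B genes that were not among the members, 3 were counted in 10 or more cells. Serpinb1b was counted in 16 cells, Serpinb9b in 14 and Serpinb6c in 11. Serpinb9b was concentrated in pair 46, where its counts were 11199 and 1335, the pair that also held the highest counts of Serpinb2 and Serpinb1a. Serpinb13, Serpinb3b, Serpinb3d, Serpinb6d, Serpinb6e, Serpinb9d and Serpinb9e had 0 counts in all 96 cells. Several of these genes are close copies of each other, so that their counts are uncertain.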
